A study of Drosophila melanogaster with 60 samples.

Results

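The transcript described here is that of abdominal A (abd-A; CG10325, FBgn0000014), which lies on chromosome arm 3R. It was read from probe DAC028M23, which the gene lists of the study pair with it. Elements outside those lists were not searched for the gene. The gene was chosen with earlier results of these data known, so its tests are no independent support for those results. The table held 15744 probes, and 12342 of them carried a value somewhere in the series. RNA of whole Drosophila melanogaster was compared on 60 two-color arrays with a common reference of wild type pupae of both sexes and all stages. Wild type animals were of the Canton S strain and tud progeny were offspring of mothers homozygous for tudor (tud), a recessive maternal-effect mutation that leaves offspring without germline tissue. Hours are counted after puparium formation (APF). Each of the 20 groups, 1 for each sex of each genotype at 0, 24, 48, 72 or 96 h APF, had 3 arrays. Per the published methods, the tud mothers also carried bw and sp, and the fathers carried y, w and a GFP transgene. Absence of the germline and these differences of strain therefore cannot be told apart between the genotypes. Of the tud progeny only the females showed GFP, so that sex and this marker cannot be told apart among them. Each extract pooled about 30 pupae per the labels, and nothing there says that the arrays of a group came from separate cultures, so that p-values measure the spread between these extracts, which may be technical.

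abdominal A encodes a homeodomain transcription factor of the bithorax complex, the cluster that also holds Ultrabithorax and Abdominal B. These factors give the segments of the posterior thorax and abdomen their identity, and abdominal A acts in the middle of the abdomen, in the epidermis, muscle, heart, nervous system and somatic gonad. In the pupa the larval abdominal epidermis is replaced by adult epidermis that grows from small nests of histoblasts, and the adult abdomen that forms differs between the sexes in shape and pigment.

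Each value is the log2 of the sample signal over the reference signal, so that 0 is the level of the reference and a difference of 1 is a 2-fold difference. They rank the groups for abdominal A alone, and no level of another gene is set against them. In whole animals, a lower ratio from fewer cells that express the gene cannot be told apart from a lower ratio from less RNA per cell. The labels put the sample in the Cy5 channel and the published methods put it in the Cy3 channel, and the direction was read from roX1, an RNA made in males for dosage compensation. roX1 lay between 0.30 and 1.88 on the 15 wild type male arrays and between -6.12 and -2.45 on the 14 wild type female arrays with a value, so a higher ratio was taken as more RNA in the sample. The testis transcript beta-Tubulin at 85D lay between -0.25 and 1.46 in wild type males and between -8.18 and -2.96 in tud males.

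Abundance of abdominal A changed through metamorphosis in each sex of each genotype and was highest at 0 or 24 h. In wild type males it had fallen by 24 h, and in the other groups the first fall past the threshold came between 24 and 48 h. Whether the step from 0 to 24 h differed between the groups was not itself tested. A value was present on 52 of the 60 arrays, with 3 values in 12 groups and 2 values in 8. The 8 arrays without a value had a median of 5283 probes with a value, against 6777 on the 52 others. Elements too weak in both channels had been removed, so that a missing value is not a level of 0. The values ran from -1.63 to 1.85.

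In wild type males the 0 h ratios were 1.40, 1.85 and 1.04, and those of 24 h were -0.26, 0.23 and 0.40. At 48 h they were -0.15, -0.06 and -0.07, and at 72 h they were -0.82, -0.72 and -1.02. The 2 values at 96 h were -1.25 and -1.63. The 3 arrays at 0 h thus lay above all the later ones, the 24 h and 48 h arrays overlapped, and the 72 h and 96 h arrays were the lowest.

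In wild type females the 0 h ratios were 1.30, 1.46 and 1.35, and those of 24 h were 1.57, 1.32 and 1.33. At 48 h they were 0.46, 0.83 and 0.59. The 2 values at 72 h were -0.57 and 0.19, and the 2 at 96 h were -0.47 and -0.36. The 0 h and 24 h arrays overlapped, all 3 arrays at 48 h were lower, and the 72 h and 96 h arrays overlapped with each other.

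In tud males the pair of ratios at 0 h was 1.02 and 1.00, and the 24 h ratios were 1.13, 0.90 and 1.11. The 48 h ratios were -0.03, -0.54 and -0.48, and the 72 h ratios were -0.60 and -0.99. At 96 h the 2 values were -1.24 in replicate 1 and 1.02 in replicate 3. The 0 h and 24 h arrays therefore lay together above those of 48 h and 72 h, and of the 96 h arrays 1 lay below and 1 above those of 48 h and 72 h.

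In tud females the 0 h ratios were 1.09, 1.20 and 1.26, and the pair at 24 h was 1.42 and 1.53. The 48 h ratios were 0.07, 0.27 and 0.24, and the 72 h ratios were 0.88 and -0.17. At 96 h they were -1.004, -0.81 and -0.72. The 24 h arrays were the highest, those of 48 h lay between the values at 72 h, and the 96 h arrays were below all others.

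**Figure D1:**
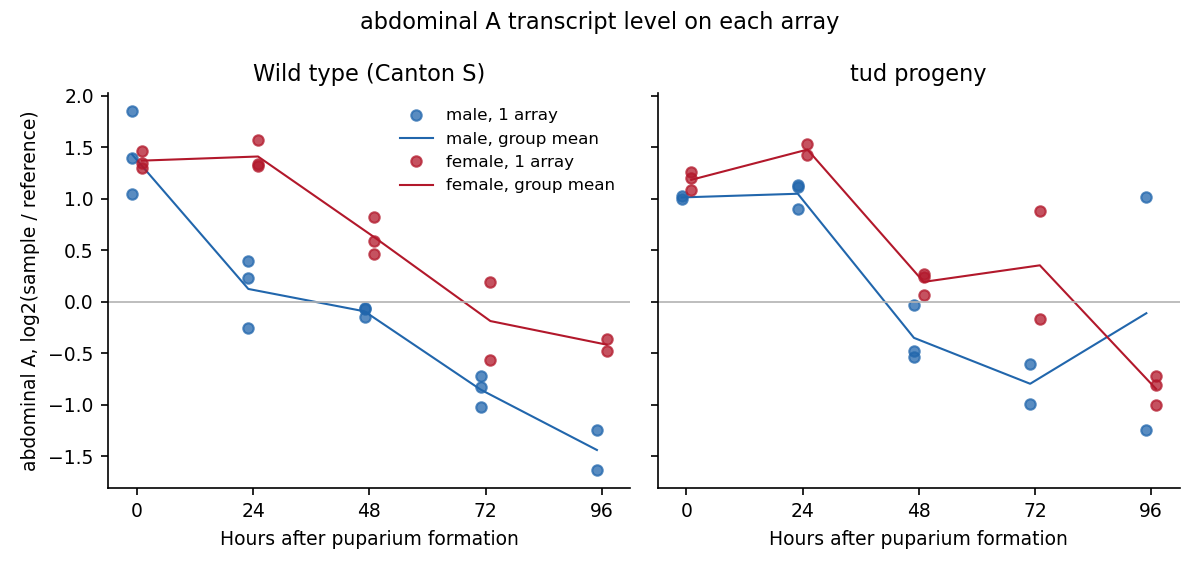
Log2 ratio of abdominal A to the reference (vertical axis) against hours APF, with 1 point for each array and lines through the group means, in wild type (left) and tud progeny (right). Male means lay below female means from 24 h on in wild type, and the tud male 96 h points at -1.24 and 1.02 stand far apart.

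Before the comparisons, 2 arrays need to be named. tud male 96 h replicate 3 had the lowest weight of the 60 arrays in a fit that weights arrays by their residuals (0.120). Its values over all probes correlated at r = 0.754 with replicate 1 and r = 0.784 with replicate 2, and at r = 0.817 with the mean of wild type females at 96 h. It exceeded replicate 1 by 2.26 for abdominal A, a difference reached or passed by 4.44% of the 3900 probes with both values. Its roX1 value of 0.20 was the lowest of the 15 tud male arrays and lay above every female value (at most -2.45). Its Male-specific RNA 87F value, of a testis transcript, was -4.67, against -4.72 in replicate 1.

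The other is wild type male 24 h replicate 1, with the next lowest weight (0.143). Its profile correlated at r = 0.713 with the mean of its own group and at r = 0.900 with the mean of wild type males at 48 h. It was the 1 array of 60 that was most like a group of another hour, while 45 were most like their own group and 14 were most like another group of their hour. The main results that rest on either array are given with and without it.

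The order of the 20 group means ran from tud females at 24 h (1.48 ± 0.08, SD, n = 2), wild type males at 0 h (1.43 ± 0.40, SD, n = 3), wild type females at 24 h (1.41 ± 0.14, SD, n = 3) and wild type females at 0 h (1.37 ± 0.09, SD, n = 3) at the top to wild type males at 96 h (-1.44 ± 0.27, SD, n = 2) at the bottom. These are 2.78 and 0.369 times the level of the reference. Of the 19 pairs of neighbours in this order, 15 had overlapping ranges. The 4 gaps without overlap separated wild type females at 0 h from tud females at 0 h, tud males at 0 h from wild type females at 48 h, wild type females at 96 h from tud males at 72 h, and wild type males at 72 h from wild type males at 96 h. The SD was below 0.30 in 15 groups, and the residual SD of the gene over all groups was 0.38, against a median of 0.27 over the probes tested in all 20 groups.

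The change with time passed the threshold, a Benjamini-Hochberg adjusted p under 0.15 over all probes tested in limma, in each sex of each genotype. The highest and the lowest hourly mean differed by 2.87 in wild type males (adjusted p = 1.46e-08) and by 1.83 in wild type females (adjusted p = 4.88e-06). They differed by 1.84 in tud males (adjusted p = 7.88e-06; 2.29 without tud male 96 h replicate 3, adjusted p = 3.58e-10) and by 2.32 in tud females (adjusted p = 3.82e-07). Change with time was the rule on these arrays, called for 81.4% of probes in wild type males, 88.9% in wild type females, 90.0% in tud males and 92.2% in tud females.

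The first called fall did not lie at the same hour in all groups, although single steps were not tested against each other. From 0 to 24 h, wild type males fell by 1.30 ± 0.31 (SE; adjusted p = 0.00128), a step called in either direction for 38.8% of probes. The same step was 0.04 in wild type females, 0.04 in tud males and 0.29 in tud females, and none of these passed the threshold. From 24 to 48 h the gene fell by 0.78 ± 0.31 (SE) in wild type females (adjusted p = 0.0506; 40.1% of probes called), by 1.40 ± 0.31 (SE) in tud males (adjusted p = 0.000552; 42.8% called) and by 1.28 ± 0.34 (SE) in tud females (adjusted p = 0.00301; 46.9% called). The call in wild type females was lost without wild type female 48 h replicate 1 (-0.70, adjusted p = 0.152). Wild type males changed by -0.22 over that step (adjusted p = 0.818; 17.2% called), and by -0.41 without wild type male 24 h replicate 1 (adjusted p = 0.523).

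Without wild type male 24 h replicate 1, the array that was most like the 48 h group, the fall of wild type males from 0 to 24 h was 1.11 (adjusted p = 0.0151). That fall therefore passed the threshold with the 2 other arrays alone. From 48 to 72 h the gene fell by 0.76 in wild type males (adjusted p = 0.0771; 28.7% called) and by 0.81 in wild type females (adjusted p = 0.0619; 45.3% called). The male call was lost without wild type male 48 h replicate 2 (adjusted p = 0.157), 48 h replicate 3 (adjusted p = 0.167) or 72 h replicate 3 (adjusted p = 0.214). The female call was lost without wild type female 48 h replicate 2 (adjusted p = 0.164) or 72 h replicate 1, where the change was -0.43 (adjusted p = 0.487). From 72 to 96 h it fell by 1.20 in tud females (adjusted p = 0.00669; 47.5% called), which became a change of -0.68 that was not called without tud female 72 h replicate 2 (adjusted p = 0.240). The rise of 0.68 in tud males over that step (adjusted p = 0.148; 51.1% called) became a change of -0.45 without tud male 96 h replicate 3 (adjusted p = 0.321), and it was 0.49 and not called without tud male 72 h replicate 3 (adjusted p = 0.437).

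Abundance was higher in wild type females than in wild type males at 24, 48 and 96 h. At 0 h the sexes overlapped, with a female minus male difference of -0.06 ± 0.31 (SE; 95% interval -0.68 to 0.56; adjusted p = 0.938; 21.1% of probes called). At 24 h all 3 female values (1.32 to 1.57) exceeded all 3 male values (-0.26 to 0.40), and the difference was 1.29 ± 0.31 (SE; 95% interval 0.67 to 1.90), a 2.44-fold difference (adjusted p = 0.00251). A sex difference at 24 h was called for 35.5% of the 6563 probes tested and female excess for 22.7%, and 99.3% of the probes had a lower female minus male difference than abdominal A. Without the male 24 h replicate 1 the difference was 1.09 (adjusted p = 0.0260).

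At 48 h the female values (0.46 to 0.83) again lay above the male values (-0.15 to -0.06), and the difference of 0.72 ± 0.31 (SE) passed the threshold (adjusted p = 0.121; 23.1% of probes called). That call was lost when any 1 of 5 of the 6 arrays was left out, with adjusted p up to 0.286, and when each array was centred on its median (0.59, adjusted p = 0.252). At 72 h the 2 female values (-0.57 and 0.19) lay above the 3 male values (-1.02 to -0.72), but the difference of 0.67 ± 0.34 (SE; 95% interval -0.03 to 1.36) just missed the threshold (adjusted p = 0.157; 36.4% called). It was 1.05 and called without wild type female 72 h replicate 1 (adjusted p = 0.0864) and 0.29 without replicate 3 of that group (adjusted p = 0.670). It was also past the threshold in 5 of the other fits and without tud male 96 h replicate 3, which is not among the arrays compared but widens the spread estimated for the gene (adjusted p = 0.0419).

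At 96 h the 2 female values (-0.47 and -0.36) lay above the 2 male values (-1.25 and -1.63). The difference was 1.02 ± 0.37 (SE; 95% interval 0.26 to 1.78), 2.03-fold, and passed the threshold (adjusted p = 0.0371; 41.9% called). Without male replicate 3 it was 0.83 and not called (adjusted p = 0.197). Every female value exceeded every male value at 24, 48, 72 and 96 h, a separation seen in 30.1%, 38.9%, 44.5% and 28.1% of the probes tested at those hours.

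Over the 5 hours together, the wild type sex difference averaged 0.73 ± 0.15 (SE; 95% interval 0.43 to 1.02) and passed the joint test (adjusted p = 0.000699). It stayed past the threshold with each of the arrays left out in turn, with a range of 0.65 to 0.80. An exact permutation test of the sex labels within hours, two-sided over 480000 relabellings, gave p = 0.000104 (0.000417 after adjustment over 4 such tests). A joint sex difference was called for 72.4% of the 3791 probes tested and female excess for 53.3%, so the call itself was common, and 98.6% of the probes had a lower mean difference than abdominal A.

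The wild type sex difference was not the same at all hours by the test of its change with time (highest minus lowest 1.34, adjusted p = 0.142; 35.3% of probes called). This call was narrow, since 22 of the 31 fits with 1 array left out gave an adjusted p above the threshold. The fit without wild type male 0 h replicate 2 gave the smallest change (1.14, adjusted p = 0.348), and the fit without wild type male 24 h replicate 1 gave 1.15 (adjusted p = 0.236). Across all probes the median female minus male difference in wild type was 0.09, 0.24, 0.27, 0.30 and 0.04 at the 5 hours. Relative to those medians the differences of abdominal A were -0.15, 1.05, 0.45, 0.36 and 0.98.

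**Figure D2:**
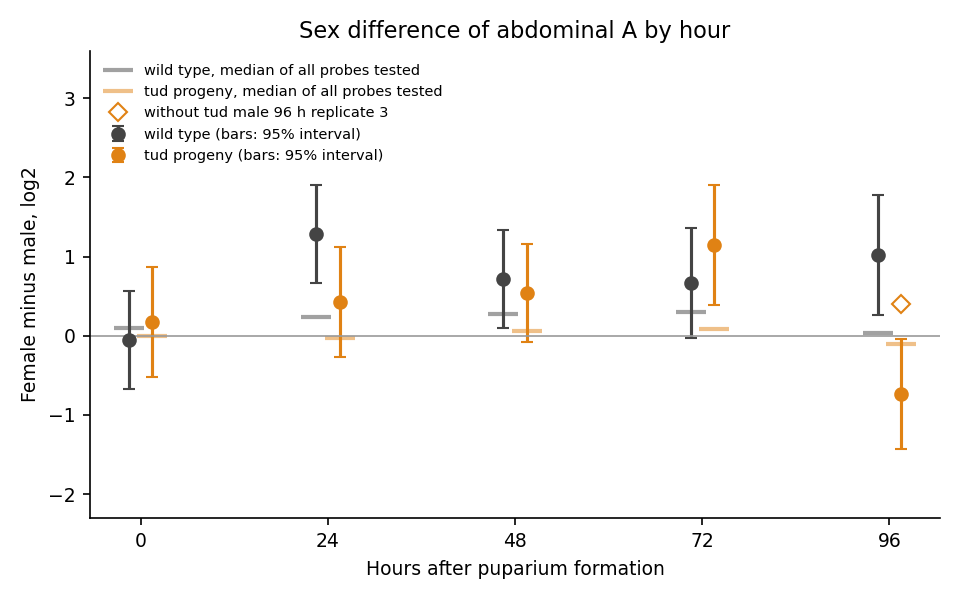
Female minus male difference of abdominal A (log2, vertical axis) at each hour in wild type and tud progeny, with 95% intervals of the fit; short horizontal marks are medians of all probes tested. The wild type interval excludes 0 at 24, 48 and 96 h, and the tud value at 96 h moves from -0.73 to 0.40 (open diamond) without tud male 96 h replicate 3.

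The sexes of tud progeny, which carry no germline, differed in the same direction from 0 to 72 h, but no hourly difference passed the threshold over all probes. At 0 h the females (1.09 to 1.26) lay above the males (1.00 and 1.02) by 0.17 ± 0.34 (SE; 95% interval -0.52 to 0.86; adjusted p = 1.00). At 24 h the females (1.42 and 1.53) lay above the males (0.90 to 1.13) by 0.43 ± 0.34 (SE; 95% interval -0.26 to 1.12; adjusted p = 0.782). The females were thus the higher sex on every array with a value at both hours, by less than the error fitted over all groups could resolve. In the fit of the compared arrays alone the standard error was 0.17 at each of these hours. Neither difference was called there either (adjusted p = 0.982 at 0 h and 0.391 at 24 h).

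At 48 h the females (0.07 to 0.27) lay above the males (-0.54 to -0.03) by 0.54 ± 0.31 (SE; 95% interval -0.08 to 1.16; adjusted p = 0.568). At 72 h the females (-0.17 and 0.88) lay above the males (-0.99 and -0.60) by 1.15 ± 0.37 (SE; 95% interval 0.39 to 1.91), with an unadjusted p = 0.00406 and an adjusted p = 0.278. Sex differences were rare in tud progeny, called for 0.0322%, 1.62%, 0.660%, 0.899% and 4.61% of probes at the 5 hours, and complete separation with females higher was found in 8.99%, 11.7%, 12.7% and 14.5% of probes at 0, 24, 48 and 72 h.

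At 72 h the call turned on other arrays. Without tud male 96 h replicate 3 the same difference of 1.15 passed the threshold (adjusted p = 0.0406), as it did without tud female 72 h replicate 3 (1.67, adjusted p = 0.0519). Without tud female 72 h replicate 2 it was 0.63 (adjusted p = 0.903). At 96 h the female values (-1.004 to -0.72) lay between the 2 male values, and the difference was -0.73 ± 0.34 (SE; adjusted p = 0.285). It was 0.40 without male replicate 3 (adjusted p = 0.874) and -1.87 without male replicate 1 (adjusted p = 0.000108), so these data do not settle its direction.

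The tud sex difference averaged 0.31 ± 0.15 (SE; 95% interval 0.00 to 0.62) over the 5 hours and did not pass the joint test (adjusted p = 0.192; 3.24% of the 3241 probes called). Without tud male 96 h replicate 3 the mean was 0.54 and was called (adjusted p = 0.0344), without all the 96 h arrays of tud progeny it was 0.57 over the other hours (adjusted p = 0.0354), and without tud male 96 h replicate 1 it was 0.09 and was called (adjusted p = 0.000139) on the strength of the opposite difference at 96 h. It was called as well without tud female 72 h replicate 3 (0.42, adjusted p = 0.0619), tud female 48 h replicate 1 (0.32, adjusted p = 0.142) or tud male 96 h replicate 2, which has no value of the gene (adjusted p = 0.141). The exact permutation test within hours gave p = 0.238 (two-sided, 120000 relabellings, 0.339 after adjustment). The change of the tud difference with time was 1.88 between the highest and the lowest hour and was not called (adjusted p = 0.296; 0.771% called), but it was 3.02 and called without male 96 h replicate 1 (adjusted p = 0.000157) and 2.41 and called without tud female 72 h replicate 3 (adjusted p = 0.143).

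Whether the sex difference depended on genotype was tested directly. The wild type difference exceeded the tud difference by 0.42 ± 0.21 (SE; 95% interval -0.01 to 0.84) on average, and the joint test of the 5 hours passed the threshold (adjusted p = 0.0421; 54.0% of the 2843 probes called). At single hours, from 0 to 96 h, the excess was -0.23, 0.86, 0.18, -0.48 and 1.76. Only the last was called in this fit (adjusted p = 0.0130; 35.2% called). It was not called in a fit of the compared arrays alone (adjusted p = 0.235), and without tud male 96 h replicate 3 it was 0.63 (adjusted p = 0.324).

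Without that array the joint excess was 0.19, still under the threshold (adjusted p = 0.108), and without the 96 h arrays of tud progeny it was 0.08 over the other hours and was not called (adjusted p = 0.163). At 24 h the excess of 0.86 had an adjusted p of 0.228 with all arrays and of 0.0686 without tud male 96 h replicate 3. It was called in the fit of the compared arrays (adjusted p = 0.114), with Storey q-values (q = 0.134) and with array weights (0.74, adjusted p = 0.105), and it was 0.67 without wild type male 24 h replicate 1 (adjusted p = 0.431).

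**Figure D3:**
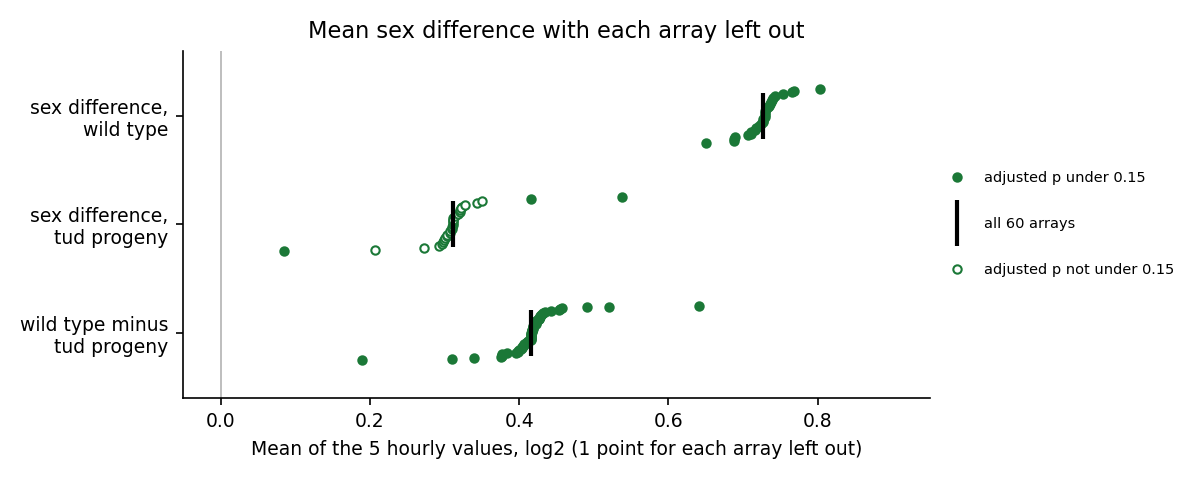
Mean female minus male difference over the 5 hours in wild type, in tud progeny and of wild type minus tud progeny (horizontal axis, log2). There is 1 point for each array left out and a vertical bar for all 60 arrays. Filled points have an adjusted p under 0.15 in the joint test of the 5 hours. Wild type points run from 0.65 to 0.80 and are all filled, while tud points run from 0.09 to 0.54 and most are open.

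The genotypes differed for abdominal A in males at 24 h. The 3 wild type males (-0.26 to 0.40) all lay below the 3 tud males (0.90 to 1.13), with a wild type minus tud difference of -0.92 ± 0.31 (SE; 95% interval -1.54 to -0.30), 1.90-fold (adjusted p = 0.0183). Lower abundance in wild type males was frequent at that hour, since 51.3% of probes were called, 39.9% with wild type lower, and the median of all probes was -0.38. Relative to that median abdominal A was at -0.54, and without wild type male 24 h replicate 1 the difference was -0.73 (adjusted p = 0.102).

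The tud values lay wholly above the wild type values, as for abdominal A, in 45.2% of probes at 24 h and in 30.3% at 96 h. For abdominal A at 96 h this was almost a tie, with -1.243 in tud male replicate 1 and -1.246 in wild type male replicate 1. At 96 h the male difference was -1.33 ± 0.37 (SE; adjusted p = 0.00500; 53.8% called), and without tud male 96 h replicate 3 it was -0.20 (adjusted p = 0.664). It was not called in the fit of the compared arrays (adjusted p = 0.337) or with array weights (-0.44, adjusted p = 0.315). The male differences of 0.42 at 0 h, 0.26 at 48 h and -0.06 at 72 h were not called, although the 3 wild type values at 0 h all lay above the 2 tud values, a separation seen in 15.9% of probes. With array weights the 0 h difference was 0.72 and called (adjusted p = 0.00199). Jointly the males passed the threshold (mean -0.33, adjusted p = 0.00428; 81.1% called), with a mean of -0.10 without tud male 96 h replicate 3 (adjusted p = 0.00447). The exact permutation of the mean gave p = 0.254 (two-sided, 240000 relabellings), the hourly differences being of both signs.

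In females no hourly difference passed the threshold in the fit to all arrays (adjusted p from 0.372 to 0.952). That at 96 h passed in the fit of the compared arrays (0.43, adjusted p = 0.136) and with array weights (0.44, adjusted p = 0.0690). The wild type minus tud differences from 0 to 96 h were 0.19, -0.07, 0.43, -0.54 and 0.43, and wild type values all lay above tud values at 0, 48 and 96 h, as in 15.5%, 13.7% and 23.3% of probes. The mean was 0.09 ± 0.15 (SE; 95% interval -0.22 to 0.39; adjusted p = 0.412; 56.2% called), and the exact permutation p was 0.588 (two-sided). It was called without tud male 96 h replicate 3 (the same 0.09, adjusted p = 0.0929), through the smaller spread estimated for the gene, and it was -0.02 and not called without tud female 72 h replicate 3 (adjusted p = 0.163).

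Transcripts of the testis were high only in wild type males (for Male-specific RNA 87F, -0.39 to 1.21 there and at most -2.22 in the other groups), and the median wild type minus tud difference of all probes in males ran from -0.38 to -0.12 over the 5 hours. The part of germline RNA in the male differences of abdominal A was not tested. Larval serum protein 1 alpha, a product of the larval fat body, had medians of -2.63 in wild type males and -1.77 in wild type females. Its medians were -1.72 in tud males and -0.72 in tud females. The paper lists this X-linked gene as differing between the sexes of tud progeny at all 5 hours. Sex bias of the gene and the amount of larval tissue cannot be told apart here, and the part of persisting larval tissue was not tested either.

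**Figure D4:**
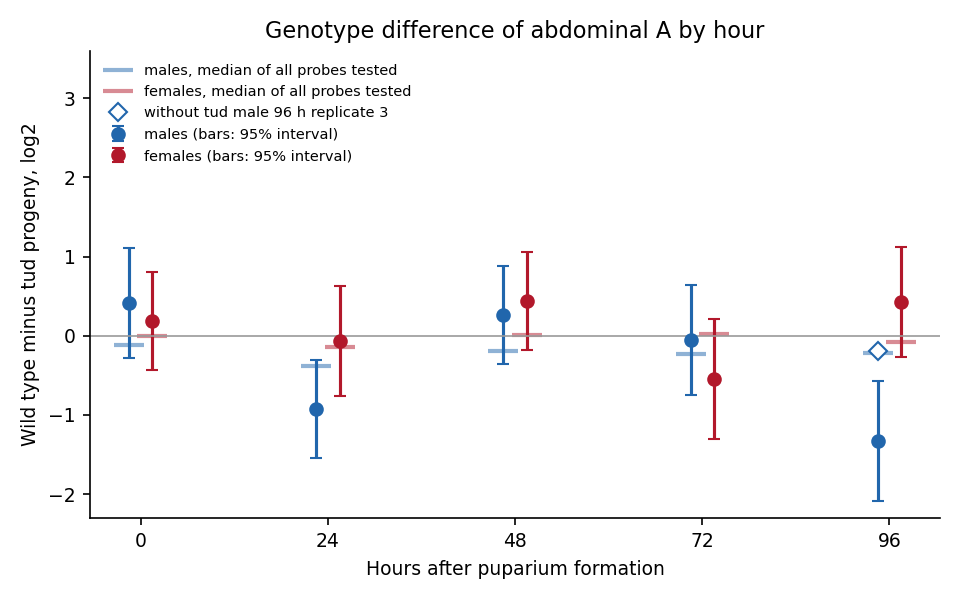
Wild type minus tud difference of abdominal A (log2, vertical axis) at each hour in males and females, with 95% intervals of the fit and the median of all probes tested as short marks. The male intervals lie below 0 at 24 and 96 h, and the open diamond at -0.20 is the male 96 h value without tud male 96 h replicate 3.

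Among the 2842 other probes with at least 2 values in each of the 20 groups, the profile most like that of abdominal A over the 20 group means was that of DAC021A20, which no table at hand pairs with a gene (Pearson r = 0.96). bendless, which encodes a ubiquitin-conjugating enzyme, followed with r = 0.93, and the unnamed probes DAC011F22, DAC041E05 and DAC019E21 had r = 0.92, 0.92 and 0.91. Only 12 probes (0.422%) had r over 0.9, against a median r of 0.15. These points share their arrays, reference and hours, so they describe likeness in these libraries.

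The lowest correlations belonged to transcripts that rose through metamorphosis. Phosphoglucose isomerase, a glycolytic enzyme, had r = -0.90 and went from a mean of -1.81 at 0 h to 0.65 at 96 h over the 4 groups of each hour. DAC026P02 had r = -0.89 and went from -2.10 to 0.98, and Actin 79B, a muscle actin of the adult, had r = -0.88 and went from -5.95 to 0.73.

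**Figure D5:**
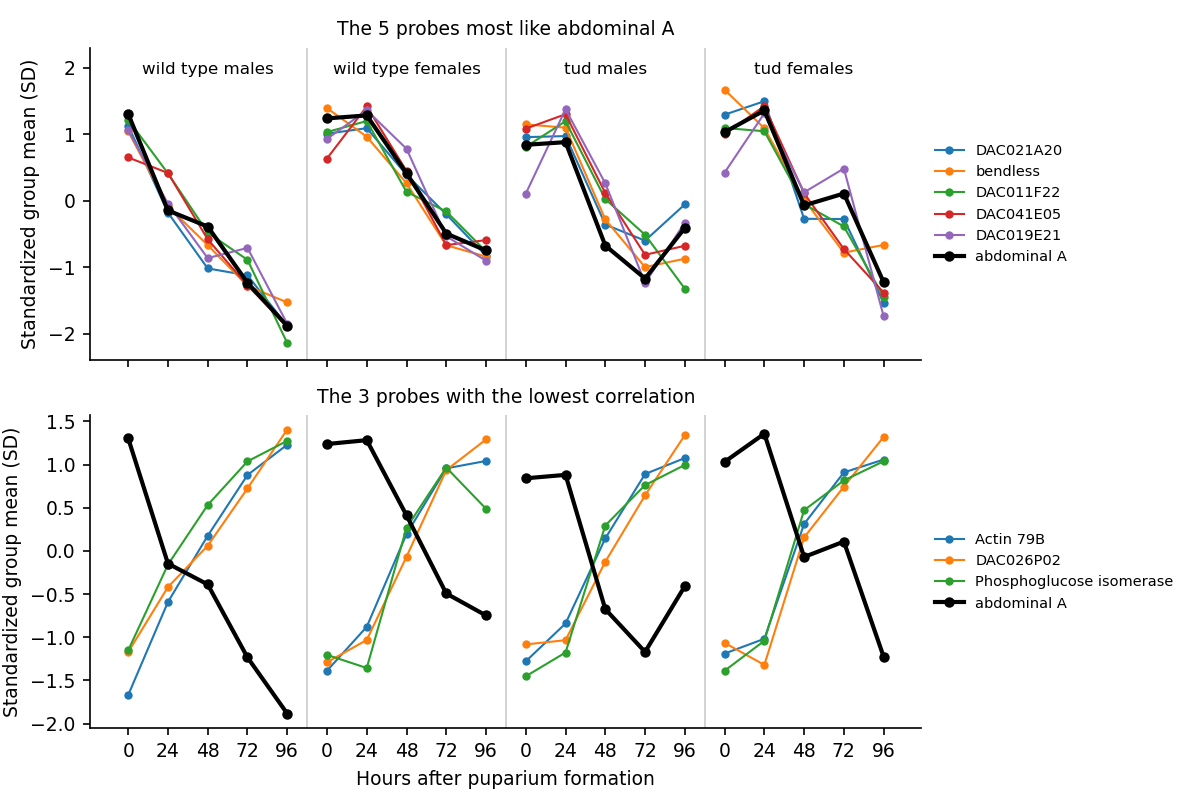
Group means of abdominal A (black), of the 5 probes most like it (top) and of the 3 with the lowest correlation (bottom), each standardized to its own mean and SD over the 20 groups (vertical axis), by hour in 4 blocks of sex and genotype. bendless (r = 0.93) falls with abdominal A, and Phosphoglucose isomerase (r = -0.90) rises as it falls.

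Few genes that act with abdominal A could be read beside it. No other gene of the 8 listed Hox cluster genes had a paired probe, nor had the 2 Hox cofactors or the 9 Polycomb and trithorax group genes, and these were not analysed here. Of 10 listed genes of abdominal patterning and pigment, 6 had one, namely yellow, ebony, Dopa decarboxylase, pale, decapentaplegic and teashirt. Of 7 sex hierarchy genes, Sex-lethal (2 probes) and transformer had one. The paired names come from lists that the study drew from these samples, so they are no independent sample of the pathway.

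Called differences of the patterning and pigment probes in wild type were 1 of the 5 tested at 24 h, 2 of 4 at 72 h and 1 of 4 at 96 h, all with females higher. Female excess was called for 22.7%, 26.1% and 21.3% of all probes at these hours, so counts this small say nothing particular of the list. teashirt, a zinc finger factor of trunk identity, was higher at 24 h, the hour of the largest abdominal A difference, by 0.83 ± 0.25 (SE; adjusted p = 0.0210), with female values of 1.20 to 1.73 and male values of -0.08 to 1.02. Without wild type male 24 h replicate 1 that difference was 0.49 and not called (adjusted p = 0.180). Dopa decarboxylase and pale (tyrosine hydroxylase), which make dopamine for cuticle pigment, were higher in females at 72 h by 1.88 ± 0.40 (SE; adjusted p = 0.000696) and 1.64 ± 0.72 (SE; adjusted p = 0.0959). ebony, which conjugates dopamine for tan cuticle, was higher in females at 96 h by 2.67 ± 0.51 (SE, adjusted p = 8.67e-05). Its female values were 2.37 to 3.05 and its male values -0.80 to 0.57. The other probes of the list tested at 96 h, yellow (-0.43), Dopa decarboxylase (-0.16) and pale (-0.11), had males higher and were not called. yellow was also lower in females at 72 h (-0.30, not called).

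The median difference of the patterning and pigment probes tested at each hour was 0.25, 0.15, 0.30, 0.94 and -0.14 from 0 to 96 h, over 4 or 5 probes, against the all-probe medians given above. In tud progeny the lowest adjusted p of these probes was 0.240, for pale at 24 h (-2.01). Sex-lethal, the switch gene of the female pathway, was higher in wild type females at 24 h on both probes, by 0.83 (DAC006G03; adjusted p = 0.0686) and 1.27 (DAC006G05; adjusted p = 0.00656), and without wild type male 24 h replicate 1 by 0.96 (adjusted p = 0.125) and 1.11 (adjusted p = 0.0366). Sex-lethal was called in wild type at other hours too, with females higher. DAC006G03 was called at 0 h (1.07, adjusted p = 0.0283), where the sexes overlapped for abdominal A, at 48 h (0.88, adjusted p = 0.0472) and at 72 h (0.80, adjusted p = 0.0512). DAC006G05 was called at 48 h (1.17, adjusted p = 0.0186) and not at 96 h (0.46, adjusted p = 0.304). In tud progeny the lowest adjusted p of Sex-lethal was 0.225, for DAC006G03 at 96 h (0.71). transformer was not tested in these sex comparisons because too few of its values were present.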

How the data were processed

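Gene expression was measured in 60 whole-animal extracts, each against the common reference. Per the published methods, the authors scanned the slides with GenePix, discarded elements marked as bad or too weak in both channels, and applied global loess within arrays using LIMMA. The log2 ratios of the sample over the reference were used as deposited. Neither background correction nor scaling between arrays was stated, array medians ran from -0.03 to 0.32, 3954 to 10236 probes had a value on an array, and their number limits the precision. The 32 control elements were left out.

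All arrays entered a single linear model, with 1 mean for each of 20 groups, in limma 3.58.1 (R 4.3.3; statmod 1.5.0). A probe was tested when each group compared had at least 2 values. P-values were Benjamini-Hochberg adjusted over all probes tested, with the threshold of 0.15 used by the study. The study applied it to q-values, and for single hours only over genes that its F tests had selected. Hourly calls here and in the study are therefore not like for like. Joint results are moderated F tests, with the mean of the 5 hours (or, for changes with time, the highest minus the lowest) as the value. The script was tested on simulated data. Alternatives were other samples in the fit, a replicate block, Storey q-values, median centring, quantile normalization, array weights, other minimums of values, each array left out, and exact permutation. The arrays of tud males at 96 h were examined further after their values were seen.

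Named genes were the 5 probes with the highest and the 3 with the lowest Pearson r over the 20 group means, and every gene of 5 lists with a paired probe. The gene and the lists were chosen with earlier results of these data known. Names come from gene lists of the study (2357 probes paired with 1 gene, 2312 of these with a RefSeq symbol of another genome release, so no positions are given). Per the labels, the collection note of tud female 48 h replicate 1 is that of the reference, and replicate 2 was aged 46 h. Both stayed in the group that their titles give. Same-numbered male and female arrays did not consistently deviate together (30 pairs, r from -0.53 to 0.50, median 0.0005, 11 over 0.1, over 742 probes), so the numbers were not taken as pairs. Figures used Python 3.11.15 with matplotlib 3.10.9.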

Additional observations from a re-analysis of the deposited data

Results flagged for a closer look

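The wild type and tud sex differences differed by the joint test (mean excess 0.42, adjusted p = 0.0421) and at 96 h (1.76, adjusted p = 0.0130). The 96 h value was 0.63 without tud male 96 h replicate 3, and the joint call was lost without the 96 h arrays of tud progeny. The wild type sex difference changed between hours (highest minus lowest 1.34, adjusted p = 0.142), a call lost in 22 of the 31 fits with 1 array left out. Groups of 3 arrays are too small for a test of outlying samples.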

How the results depend on the processing

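In wild type, the sex difference at 24 h and that over the 5 hours together kept their direction and their side of the threshold in all alternatives run. The 4 time effects kept their side of the threshold, and their values cannot be negative. The female minus male difference at 72 h in wild type passed the threshold in the fit of the compared arrays (0.67), with Storey q-values (0.67), with quantile normalization (1.12), with array weights (0.66) and in the fit with the replicate block (0.71). At 48 h it was lost with median-centred arrays (0.59). In tud progeny the 72 h difference passed with quantile normalization (1.40) and array weights (0.92). The 96 h difference in tud progeny turned to 0.079 with array weights. The joint test of their 5 hours passed with quantile normalization (mean 0.41), array weights (mean 0.41) and without the 96 h arrays of tud progeny (mean 0.57). The genotype dependence was lost without those 96 h arrays (0.080). The joint genotype test in females passed in the fit of the compared arrays and with Storey q-values (mean 0.088 each) and with array weights (mean 0.14). The male mean (-0.33) was past no threshold by permutation. The change of the wild type sex difference was lost with no minimum of values (1.34). The cause of these changes was not tested.

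With 1 array left out, the wild type sex difference ran from -0.25 to 0.15 at 0 h, from 0.62 to 0.80 at 48 h, from 0.29 to 1.05 at 72 h and from 0.83 to 1.22 at 96 h, and its change with time from 1.14 to 1.54. The tud sex difference ran from 0.63 to 1.67 at 72 h and from -1.87 to 0.40 at 96 h, its mean from 0.085 to 0.54 and its change from 0.98 to 3.02. The female genotype mean ran from -0.016 to 0.19. Uncalled values that changed sign were the dependence on genotype at 72 h (-1.01 to 0.040), the male genotype difference at 72 h (-0.25 to 0.14), the steps from 0 to 24 h in wild type females (-0.042 to 0.087) and tud males (-0.0076 to 0.11), from 48 to 72 h in tud females (-0.36 to 0.68) and from 72 to 96 h in wild type females (-0.61 to 0.15). The called step from 72 to 96 h in tud males ran from -0.45 to 1.82.

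Values also turned in other settings, all but 1 of them uncalled. The male genotype difference at 72 h was 0.0059 with the replicate block and 0.037 with median-centred arrays, and the female one at 24 h was 0.0023 with median-centred arrays and 0.080 with quantile normalization. The tud male step from 0 to 24 h was -0.11 with median-centred arrays and -0.0093 with quantile normalization, which also turned the steps from 72 to 96 h in wild type males (0.051) and females (0.020). Array weights gave -0.12 for the called step from 72 to 96 h in tud males and -0.088 for that from 48 to 72 h in tud females. The replicate block changed no call of a sex or genotype difference or joint test other than the one named above.

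With 2 or 3 values a group, hourly differences had standard errors of 0.31 to 0.37, and differences of 0.54, 0.67 and 1.15 were not called at single hours. These errors also rest on tud male 96 h replicate 3, which widens the spread estimated for the gene. Without it, hourly differences that do not use its group had standard errors of 0.21 to 0.26. The differences of 0.67 and 1.15 were then called, as given above, and that of 0.54 was not. Background and saturation of this element were not examined, since raw intensities were not used.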
